A study of Mus musculus with 18 samples.

Results

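The interferon-stimulated genes described here are 43 mouse genes chosen by name, with earlier results of these data known. They are transcription factors, sensors of foreign nucleic acid and antiviral effectors that cells switch on when an interferon binds its receptor. All 43 were found among the 24091 gene symbols of the epididymal table and among the 51826 gene identifiers of the inguinal table, and all 43 passed the filters on low values in both. They fall into 9 groups by role, lie on 15 chromosomes, and 17 of them have another of the 43 within 100 kb.

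Interferons are secreted proteins, and type I interferons signal in nearly every cell type. Their receptor activates the kinases JAK1 and TYK2, which phosphorylate STAT proteins, among them STAT2. With IRF9 these bind a DNA element, the interferon-stimulated response element (ISRE), near the target genes. Type II interferon (interferon gamma) acts mainly at a different element, the gamma-activated site (GAS), and induces the guanylate-binding and immunity-related GTPases most strongly. In white fat, macrophages, endothelial cells, fibroblasts and adipocytes can all express such genes.

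The tissue came from C57BL/6 mice kept for 24 weeks on 1 of 2 light schedules. Shiftwork mice had 12 h of light and 12 h of dark on 4 days a week and the inverted cycle on the other 3 days, and control mice had the regular cycle throughout. Epididymal white adipose tissue (eWAT, a visceral depot) was sampled at ZT12 from shiftwork and control mice and at ZT3 from shiftwork and control mice, and inguinal white adipose tissue (iWAT, a subcutaneous depot) at ZT3 from shiftwork and control mice, with 3 libraries in each of these 6 groups. ZT counts hours from lights-on of the regular cycle, so ZT12 is its lights-off. Neither the age of the mice nor the day of the weekly rotation on which tissue was taken is given in the sources used here, and the labels do not say that the libraries of a group came from separate animals, so the p-values measure the spread between these libraries.

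Assigned reads ran from 20352008 to 72276733 per library in eWAT and from 28544338 to 55639501 in iWAT. The 8 adipocyte markers summed to between 10366 and 28526 CPM (counts scaled to the assigned reads of the library) across all 18 libraries, and none of them was at 0 in any library. Several libraries also held transcripts of other tissues. Vas deferens markers summed to 12792 and 12228 CPM in ZT3 control eWAT replicates 1 and 3, against 2.92 to 49.2 CPM in the other eWAT libraries. Spermatid markers reached 5391 CPM in ZT3 shiftwork eWAT replicate 3 and intestine markers 164 CPM in ZT12 shiftwork eWAT replicate 2. In iWAT, skeletal muscle markers reached 41268 CPM in shiftwork replicate 1, and B cell markers summed to 947 and 1465 CPM in control replicates 1 and 2, against 4.99 to 41.5 CPM in the other iWAT libraries.

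Per length, the members of eWAT spanned a wide range of levels. Ifitm3, which encodes a membrane protein that restricts virus entry, had the highest median over the 12 eWAT libraries at 124 FPKM (a level scaled to gene length and depth, from the authors' log2 values), with a range of 73.0 to 241 FPKM. Lgals3bp, which encodes a secreted galectin-binding glycoprotein, followed at 121 FPKM, within the range of Ifitm3, and the GTPase gene Gbp2 at 37.1 FPKM. The lowest medians belonged to Oas3 at 0.446, Oasl1 at 0.639, Mx2 at 0.807 and Mx1 at 0.856 FPKM. In C57BL/6 mice Mx1 carries a deletion and yields no functional protein, so its transcript is a readout of induction only. In iWAT the same pair led in the authors' RPKM, with medians over 6 libraries of 193 RPKM for Ifitm3 and 171 RPKM for Lgals3bp, and Ifi44 was lowest at 0.537 RPKM.

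In control mice, the interferon-stimulated genes were higher in eWAT at ZT12 than at ZT3. Because the list was chosen with earlier results of these data known, the counts below describe it and are no independent test. All 43 had a log2 fold change above 0, against 48.7% of all genes tested, with a median of 0.79 and a range of 0.24 to 1.85, while the median of all 15141 genes tested was -0.01. At an unadjusted p under 0.05 there were 35 members, against 22.4% of all genes. The test over all genes (edgeR quasi-likelihood, Benjamini-Hochberg adjusted p under 0.05) called 16 of the 43, all higher, where it called 3.69% of all genes in either direction and 2.93% as higher. In 34 of 43 members every ZT12 control library lay above every ZT3 control library, which held for 19.3% of all genes. The called members were Stat2, Irf7, Sp100, Zbp1, Oas1a, Oas2, Ifit2, Ifit3, Cmpk2, Bst2, Ifitm3, Trim25, Parp14, Gbp3, Lgals3bp and Xaf1.

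**Figure D1:**
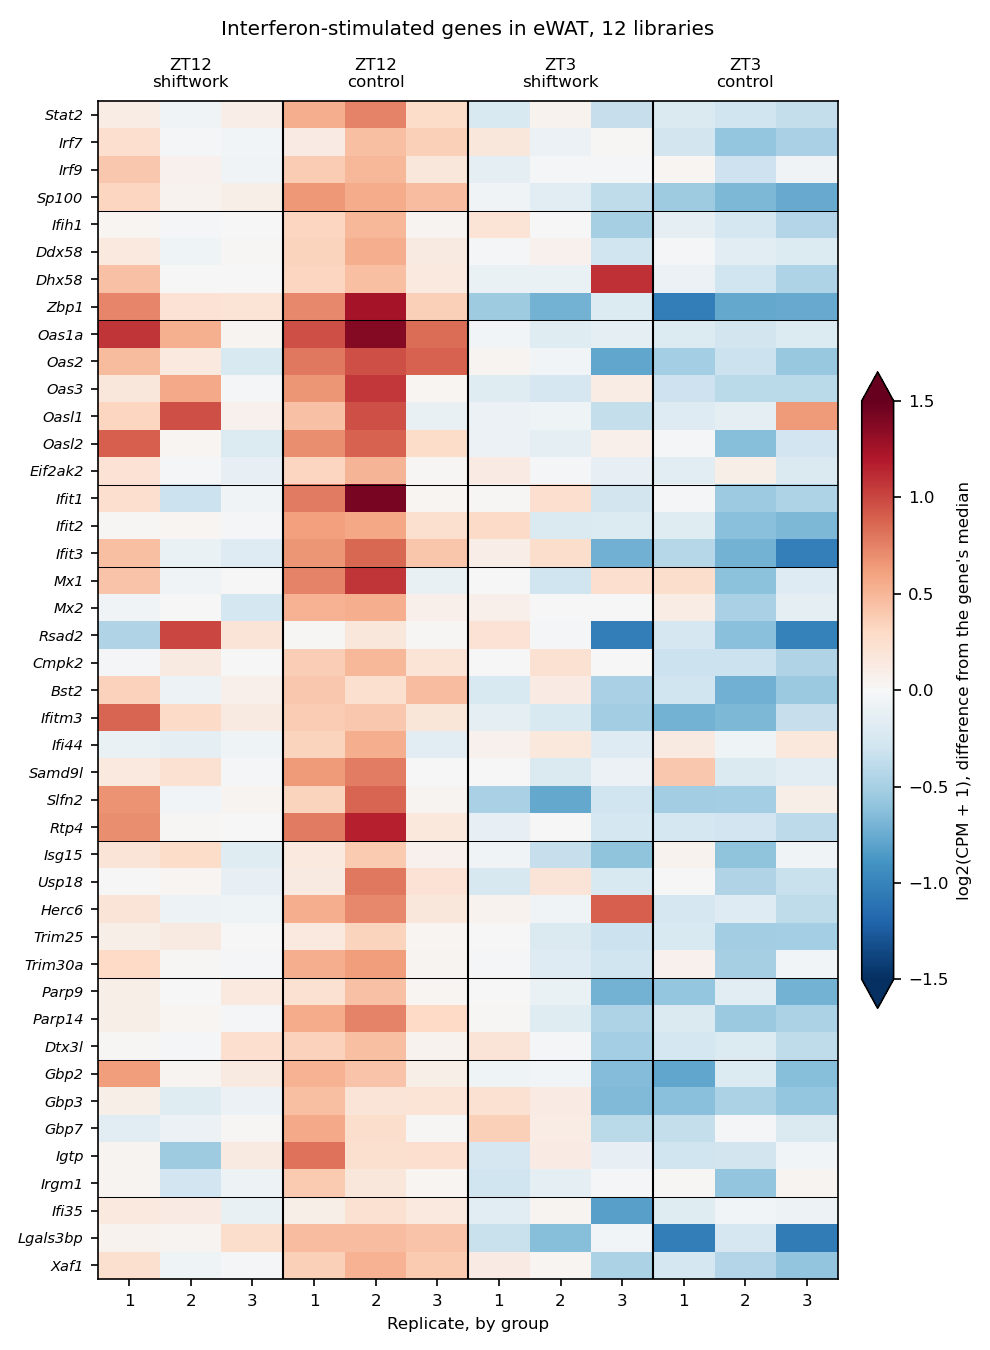
Colour shows log2(CPM + 1) of each of the 43 members (rows, in their role groups) in each of the 12 eWAT libraries (columns) as the difference from that gene's median over the libraries, with colours saturating at 1.5. The 3 ZT12 control columns are mostly red and the 3 ZT3 control columns mostly blue, the ZT12 control replicate 2 column is the deepest red, and both shiftwork groups lie nearer to the median.

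The transcription factor group holds Stat2, Irf9, Irf7 and Sp100, and 3 of its 4 members were called. Sp100, a nuclear body component (chr1:85649988-85709997), had the smallest p of the 43. It stood at 120.3, 112.2 and 105.0 CPM (here scaled by TMM factors) in ZT12 control libraries, against 52.4, 47.4 and 44.9 CPM in ZT3 control libraries. The groups were far apart relative to their spread, and Sp100 rose by 1.22 ± 0.12 (SE, n = 3 libraries a group, edgeR, adjusted p = 0.00607), or 2.33-fold. Stat2, a signal transducer of the type I response, averaged 70.3 ± 11.2 CPM at ZT12 and 39.3 ± 2.12 CPM at ZT3 (SD, n = 3), a rise of 0.84 ± 0.14 (edgeR, adjusted p = 0.0195). Irf7, which amplifies the type I response by inducing more interferon, averaged 26.2 ± 3.10 CPM at ZT12 and 15.1 ± 1.79 CPM at ZT3 and rose by 0.79 ± 0.14 (edgeR, adjusted p = 0.0240). The DNA-binding subunit Irf9 differed by 0.48 ± 0.15 and did not pass (edgeR, adjusted p = 0.0920).

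Among the 4 sensors, Zbp1, which recognises left-handed nucleic acid and can start cell death (chr2:173206612-173218922), was called. It had 17.9, 26.1 and 13.6 CPM in ZT12 control libraries, against 4.54, 5.70 and 5.76 CPM in ZT3 control libraries. Its rise of 1.85 ± 0.28 (edgeR, adjusted p = 0.0168) was the largest of the 43. The RNA helicase sensors Ifih1 (encoding MDA5), Ddx58 (encoding RIG-I) and Dhx58 (encoding LGP2) had log2 fold changes between 0.48 and 0.64 and were not called.

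The oligoadenylate synthetases make a second messenger in response to double-stranded RNA, and Eif2ak2 encodes PKR, the kinase that stops translation on double-stranded RNA. Of these 6 genes, Oas1a and Oas2 were called. Oas2 (chr5:120730333-120749848) had 31.1, 35.3 and 33.5 CPM in ZT12 control libraries, against 12.1, 13.9 and 11.5 CPM in ZT3 control libraries. The groups did not overlap, and Oas2 rose by 1.41 ± 0.24 (edgeR, adjusted p = 0.0212). Oas1a had 5.89, 8.08 and 5.26 CPM in ZT12 control libraries, against 2.05, 1.90 and 2.05 CPM in ZT3 control libraries, and rose by 1.68 ± 0.33 (edgeR, adjusted p = 0.0288). It belongs to a cluster of near-identical Oas1 genes, so reads may have been split among copies. Oasl1, the synthetase-like gene that can hold back Irf7 translation, was at the other end of the order: it had 4.04, 6.24 and 2.42 CPM in ZT12 control libraries, against 2.23, 2.34 and 4.78 CPM in ZT3 control libraries. These groups overlapped, and the difference of 0.44 ± 0.45 did not pass (edgeR, adjusted p = 0.633).

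The IFIT proteins bind viral RNA ends and block translation. Ifit2 (chr19:34550694-34576534) had 34.9, 33.9 and 26.7 CPM in ZT12 control libraries, against 19.6, 14.1 and 13.6 CPM in ZT3 control libraries, and rose by 1.01 ± 0.19 (edgeR, adjusted p = 0.0262). Ifit3 averaged 33.6 ± 5.21 CPM at ZT12 and 12.5 ± 2.74 CPM at ZT3 and rose by 1.43 ± 0.29 (edgeR, adjusted p = 0.0329). Reads of Ifit3 may be shared with its close copy Ifit3b. Ifit1 had a similar difference of 1.27 ± 0.35 but a wider spread, with 19.6, 31.0 and 11.2 CPM in the ZT12 control libraries, and did not pass (edgeR, adjusted p = 0.0709).

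Of the 10 Mx and other antiviral effectors, Cmpk2, Bst2 and Ifitm3 were called. Cmpk2, a mitochondrial nucleotide kinase (chr12:26469215-26479837), had 18.2, 19.9 and 16.1 CPM in ZT12 control libraries, against 10.9, 10.9 and 9.81 CPM in ZT3 control libraries, and rose by 0.78 ± 0.13 (edgeR, adjusted p = 0.0195). Its neighbour Rsad2, which encodes the antiviral enzyme viperin, differed by 0.69 ± 0.40 and did not pass. Bst2, which encodes tetherin, a protein that holds budding virus at the cell surface, rose by 0.93 ± 0.19 (edgeR, adjusted p = 0.0329). Ifitm3 rose by 0.90 ± 0.20 (edgeR, adjusted p = 0.0401). Ifi44, the member with the largest p, had 4.61, 5.48 and 2.98 CPM in ZT12 control libraries, against 3.88, 3.26 and 3.96 CPM in ZT3 control libraries, a difference of 0.24 ± 0.26 with overlapping groups (edgeR, adjusted p = 0.673).

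Isg15 encodes a ubiquitin-like modifier, Usp18 the protease that removes it, and Herc6 the mouse ligase that attaches it. None of these was called, and Trim25, a ubiquitin ligase that activates RIG-I, was the called member of the group of 5. Trim25 (chr11:88999403-89020293) had 82.6, 94.4 and 76.1 CPM in ZT12 control libraries, against 63.7, 51.6 and 52.3 CPM in ZT3 control libraries, and rose by 0.59 ± 0.13 (edgeR, adjusted p = 0.0359). Isg15 itself differed by 0.47 ± 0.30 (edgeR, adjusted p = 0.408), although its groups did not overlap.

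Parp14, an ADP-ribosyltransferase (chr16:35832878-35871382), had 150.4, 171.1 and 125.8 CPM in ZT12 control libraries, against 87.3, 68.8 and 72.7 CPM in ZT3 control libraries. It rose by 0.97 ± 0.15 (edgeR, adjusted p = 0.0182). Its neighbours Parp9 and Dtx3l, whose products form a complex, differed by 0.72 ± 0.20 and 0.58 ± 0.18 and were not called. Dtx3l and Parp9 overlap on opposite strands and the strand used for counting is not given in the sources used here, so reads in the overlap cannot be told apart.

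Gbp3, a guanylate-binding GTPase (chr3:142560052-142573212), had 52.2, 43.5 and 43.9 CPM in ZT12 control libraries, against 24.3, 27.0 and 25.1 CPM in ZT3 control libraries. It rose by 0.87 ± 0.21 (edgeR, adjusted p = 0.0496), the called value nearest to the threshold. Gbp2, Gbp7, Igtp and Irgm1, GTPases that act on vacuoles holding intracellular pathogens, had log2 fold changes between 0.37 and 0.88 and were not called. Lgals3bp (chr11:118392752-118401931) had 464.0, 465.0 and 456.3 CPM in ZT12 control libraries, against 164.6, 282.5 and 162.9 CPM in ZT3 control libraries. It rose by 1.18 ± 0.23 (edgeR, adjusted p = 0.0270), and its lower ZT3 values were those of replicates 1 and 3, the 2 libraries with vas deferens transcripts. Xaf1, a gene linked to apoptosis, rose by 0.90 ± 0.18 (edgeR, adjusted p = 0.0305), and Ifi35 differed by 0.26 ± 0.19 and was not called.

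**Figure D2:**
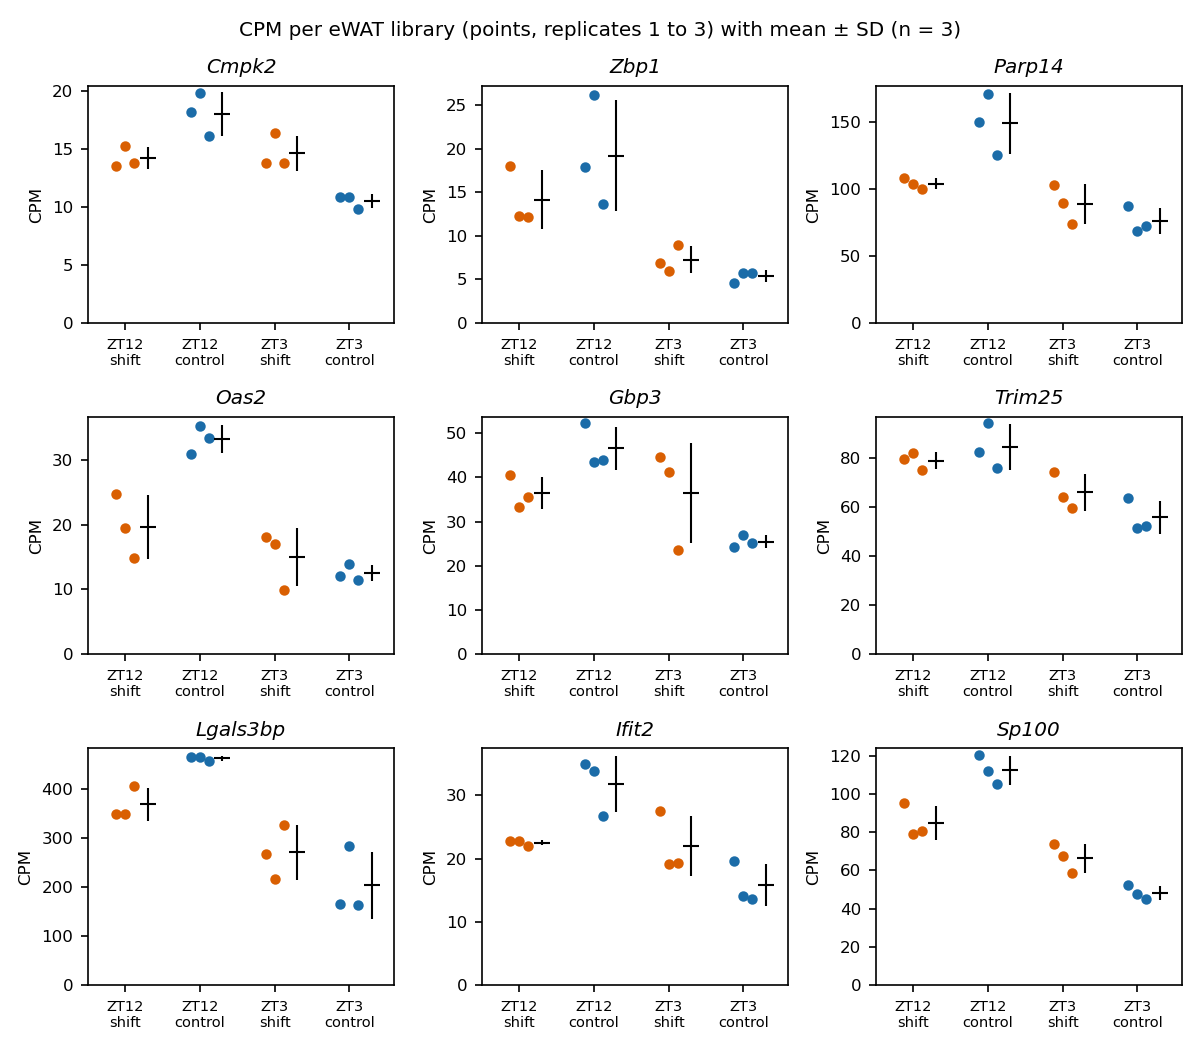
Each panel plots CPM (from 0) in every eWAT library for the member with the smallest p of its role group, with points for replicates 1 to 3 from left to right and the mean ± SD (n = 3) beside them. In all 9 panels the ZT12 control points lie above the ZT3 control points without overlap, and the shiftwork groups, in orange, lie closer together.

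The direction of these differences did not depend on any single library, and the number of calls did. All 43 members stayed above 0 in each of the 12 fits that left out 1 library. The test called none of them without ZT3 control replicate 3 (30 at an unadjusted p under 0.05 in edgeR) or without ZT12 control replicate 1 (29), 1 without ZT12 control replicate 2, 6 without ZT12 control replicate 3 or ZT12 shiftwork replicate 2, 7 without ZT12 shiftwork replicate 3, 8 without ZT3 control replicate 1, 9 without ZT3 shiftwork replicate 1 and 28 without ZT3 shiftwork replicate 3. Of all genes, the test then called 0.0193%, 0.00638%, 0.0255%, 0.772% (ZT12 control replicate 3), 0.92% (ZT12 shiftwork replicate 2), 0.988%, 1.12%, 1.76% and 17.8%, in the same order. In the other 3 such fits it called 14 members without ZT3 control replicate 2 (7.72% of all genes), 13 without ZT3 shiftwork replicate 2 (2.69%) and 16 without ZT12 shiftwork replicate 1 (2.55%). With the 4 libraries that hold vas deferens, spermatid or intestine transcripts left out, which leaves 1 ZT3 control library that is assumed to vary like the other groups, Bst2, Parp14 and Sp100 were called, all 43 were above 0, the median was 0.81 and 2.15% of all genes were called. DESeq2 called 28 members, where it called 15.3% of all genes, and edgeR with the replicate number as a block called 12, where it called 1.97%. ZT12 control replicate 2 had the highest value of all 12 eWAT libraries in 30 of 43 members, which it had in 7.19% of all genes, and ZT12 control replicate 3 had the lowest of its group in 35 of 43, against 40.7% of all genes.

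Transcripts of macrophages were also higher at ZT12. The 16 macrophage markers, all detected in every library, summed to 2558, 2988 and 1758 CPM in ZT12 control libraries, against 1136, 1142 and 1080 CPM in ZT3 control libraries. Of these, 15 had a log2 fold change above 0, against 48.7% of all genes, with a median of 1.26. Cd14, Csf1r, Fcgr3 and Ms4a7 were called, where the test called 3.69% of all genes. Endothelial markers summed to 1228, 973 and 1168 CPM in ZT12 control libraries, against 967, 848 and 863 CPM in ZT3 control libraries. Dendritic markers summed to 77.0, 125 and 61.5 CPM, against 45.4, 38.9 and 43.2 CPM. Plasmacytoid dendritic sums were also higher without overlap, and B cell, mast cell and lymph node stroma sums lower. All these sums are shares of assigned reads, which in ZT3 control replicates 1 and 3 include vas deferens transcripts. The 43 members summed to 2541, 2688 and 2152 CPM in ZT12 control libraries, against 1411, 1451 and 1297 CPM in ZT3 control libraries. These member sums are scaled by TMM factors, unlike the marker sums, and had the same order of replicates as the macrophage marker sums at both times. The members' mean log2(CPM + 1) did not keep that order at ZT3, with 4.38, 4.23 and 4.26 in ZT3 control replicates 1 to 3. In shiftwork libraries the orders of the member and macrophage marker sums differed. The member sums were 2193, 1941 and 1958 CPM at ZT12, against 1781, 1646 and 1501 CPM at ZT3. In bulk tissue, more cells of a type and more RNA per cell cannot be told apart, and the part of macrophages in the time difference was not tested.

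**Figure D3:**
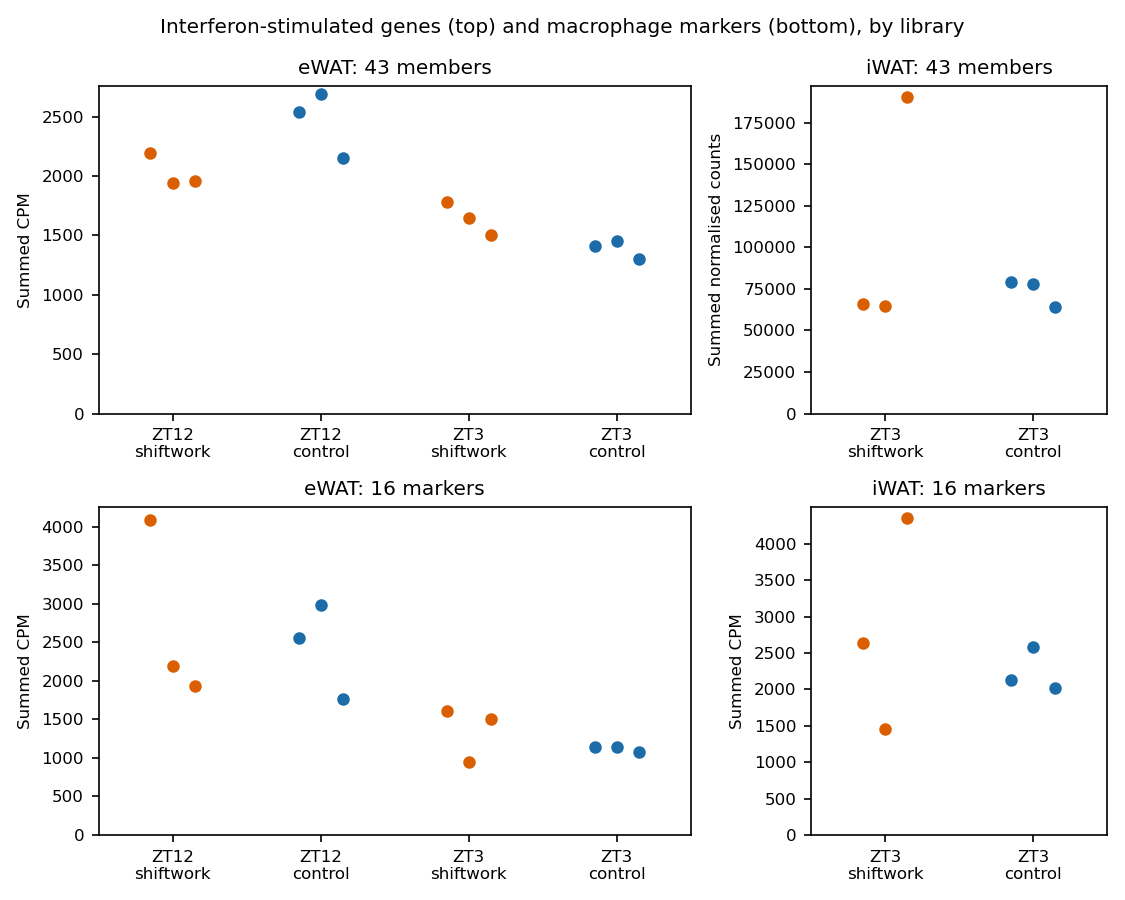
The upper panels plot the summed level of the 43 members per library (CPM in eWAT, the authors' normalised counts in iWAT) and the lower panels the summed CPM of 16 macrophage markers, with replicates 1 to 3 from left to right and all axes from 0. Both sums are higher at ZT12 than at ZT3 in eWAT, and in iWAT shiftwork replicate 3 is the highest of 6 in both.

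The ligands of the pathway were almost without reads. Of 21 interferon genes, 18 had 0 reads in all eWAT libraries and 17 had 0 in all iWAT libraries, and a count of 0 allows up to 3 reads in a library, which at these depths is at most 0.147 CPM (eWAT) or 0.105 CPM (iWAT), for counting error only. Ifng, which encodes interferon gamma, had 45 reads over the 12 eWAT libraries and at most 7 in any of them. Over the 6 iWAT libraries it had 32 reads, at most 14 in any of them. Ifnk had 3 reads and Ifnb1 had 1 in eWAT, Ifnk had 3, Ifnz 2 and Ifnab 1 in iWAT, and no ligand passed the filter for testing in eWAT. The type I receptor genes were well expressed: Ifnar1 averaged 112.6 ± 12.3 CPM in ZT12 control and 80.8 ± 2.94 CPM in ZT3 control libraries (log2 fold change 0.48 ± 0.12, edgeR, adjusted p = 0.0545), and Ifnar2 116.5 ± 2.79 and 73.5 ± 7.98 CPM (0.67 ± 0.17, edgeR, adjusted p = 0.0555). The type II receptor genes Ifngr1 and Ifngr2 differed by 0.20 ± 0.21 and 0.48 ± 0.14 and were not called either.

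For the counts that follow, 48.7% of all genes tested in the control time comparison were above 0, and 3.69% were called, 2.93% as higher. Among 15 receptor and signalling genes, 9 were above 0. The kinase gene Tyk2 rose by 0.50 ± 0.11 and Il10rb, a receptor chain shared by interferon lambda and interleukin-10, by 0.79 ± 0.18 (edgeR, adjusted p = 0.0451 and 0.0444). Among 25 tested sensors, adaptors and interferon regulatory factors outside the 43, 22 were above 0, and Tlr7 and Tlr8 (endosomal RNA sensors), Unc93b1 (their chaperone) and Samhd1 (a nucleotide hydrolase) were called, while Irf1 differed by 0.42 ± 0.14 (edgeR, adjusted p = 0.113). A further list of 57 tested interferon-stimulated genes had 54 above 0 with a median of 0.63, and 11 were called, among them Daxx, Ifi203, Ifit3b, Mndal, Phf11d, Slfn8, Sp110, Tor3a, Trim30d and Uba7. Uba7 encodes the enzyme that activates ISG15. Of 16 further interferon-gamma-induced GTPase genes, 15 were above 0 and Gbp10, Gbp5 and Irgm2 were called. Irgm2 had 77.5, 71.6 and 62.6 CPM in ZT12 control libraries, against 31.7, 32.4 and 31.2 CPM in ZT3 control libraries, and rose by 1.15 ± 0.12 (edgeR, adjusted p = 0.0122).

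The ISRE was looked for in the promoters of the members. RefSeq promoter windows (250 bases before to 50 after the start site, build GRCm38.p6) were matched for 34 of the 43 by symbol. The ISRE core GAAANNGAAA, searched on both strands with overlapping matches allowed, was found in 18 of 34 members (52.9%) against 3.99% of 27025 genes with a window. The GAS core TTCNNNGAA was found in 8 of 34 (23.5%) against 9.55%, and the E-box CACGTG, the element bound by the clock factors CLOCK and BMAL1, in 1 of 34 (2.94%, Trim25) against 8.09%. The ISRE core was in 6 of the 13 called members with a window and in 12 of the 21 others. The windows below, from the part upstream of the start site, are shown so that the element can be compared between members called in the ZT12 against ZT3 control comparison (Stat2, Oas1a, Bst2, Ifit3 and Gbp3) and members not called there (Isg15, Ifit1, Gbp2, Irgm1 and Rsad2). Capitals mark the ISRE core matches, which read TTTCNNTTTC where the match is on the opposite strand, and adjoining matches run together. A match of letters is a description and was not tested as a binding site.
Stat2, chr10:128270251-128270310, plus strand: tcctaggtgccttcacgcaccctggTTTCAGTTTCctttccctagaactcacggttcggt
Oas1a, chr5:120907526-120907570, minus strand: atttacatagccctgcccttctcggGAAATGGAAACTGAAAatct
Bst2, chr8:71537562-71537627, minus strand: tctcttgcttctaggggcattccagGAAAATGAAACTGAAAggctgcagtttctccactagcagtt
Ifit3, chr19:34583348-34583441, plus strand: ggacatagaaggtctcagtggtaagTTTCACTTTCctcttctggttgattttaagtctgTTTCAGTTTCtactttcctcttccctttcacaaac
Gbp3, chr3:142559974-142560039, plus strand: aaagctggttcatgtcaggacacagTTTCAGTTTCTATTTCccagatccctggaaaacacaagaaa
Isg15, chr4:156200850-156200921, minus strand: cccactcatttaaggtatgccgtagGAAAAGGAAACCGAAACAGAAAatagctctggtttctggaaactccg
Ifit1, chr19:34640760-34640838, plus strand: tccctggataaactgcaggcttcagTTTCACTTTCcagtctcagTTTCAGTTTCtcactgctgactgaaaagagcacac
Gbp2, chr3:142620579-142620638, plus strand: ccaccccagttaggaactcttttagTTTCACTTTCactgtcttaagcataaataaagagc
Irgm1, chr11:48871421-48871475, minus strand: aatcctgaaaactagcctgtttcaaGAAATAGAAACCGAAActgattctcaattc
Rsad2, chr12:26456538-26456597, minus strand: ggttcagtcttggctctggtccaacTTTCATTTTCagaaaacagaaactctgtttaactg

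Isg15 holds 3 such matches in a row and Bst2, Oas1a, Irgm1 and Gbp3 hold 2 that overlap. Ifit1 and Ifit3 each carry 2 separate matches. Isg15, with the most matches of these windows, did not pass the time comparison, and Sp100, Zbp1, Oas2, Parp14 and Cmpk2, which did, had no match of these letters in a window or no window.

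In shiftwork mice, the median difference between ZT12 and ZT3 in eWAT was smaller than in control mice and none of the 43 members was called (0% of all genes called by edgeR, 6 members at an unadjusted p under 0.05 against 16.3% of all genes, and 1 member, Ifitm3, called by DESeq2, which called 2.16% of all genes). The log2 fold change was above 0 in 34 of 43, against 46.4% of all genes, with a median of 0.22 and a range of -0.35 to 0.96. The median was 0.15 without ZT12 shiftwork replicate 1 (28 members above 0, and 2 at an unadjusted p under 0.05) and 0.13 without ZT3 shiftwork replicate 3 (29 members above 0). Every ZT12 shiftwork library lay above every ZT3 shiftwork library in 12 members, which held for 9.05% of all genes. The smallest p belonged to Ifitm3, which had 205.3, 136.7 and 122.7 CPM in ZT12 shiftwork libraries, against 101.6, 95.5 and 77.8 CPM in ZT3 shiftwork libraries, with a log2 fold change of 0.76 ± 0.20 (edgeR, adjusted p = 0.280). Next came Zbp1 at 0.96 ± 0.27, Sp100 at 0.36 ± 0.12, Oas1a at 0.96 ± 0.32 and Slfn2, a gene that restrains T cell activation, at 0.81 ± 0.29, all with the same adjusted p. The IFIT genes are 1 of the 9 role groups and were not picked by a rule set beforehand. With a median of 1.27 in control mice, they had log2 fold changes of -0.04 to 0.15 here. The macrophage markers were above 0 in 16 of 16, against 46.4% of all genes, with a median of 0.99. None of them was called (edgeR, lowest adjusted p = 0.280). They summed to 4091, 2192 and 1934 CPM in ZT12 shiftwork libraries, against 1614, 949 and 1510 CPM in ZT3 shiftwork libraries.

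**Figure D4:**
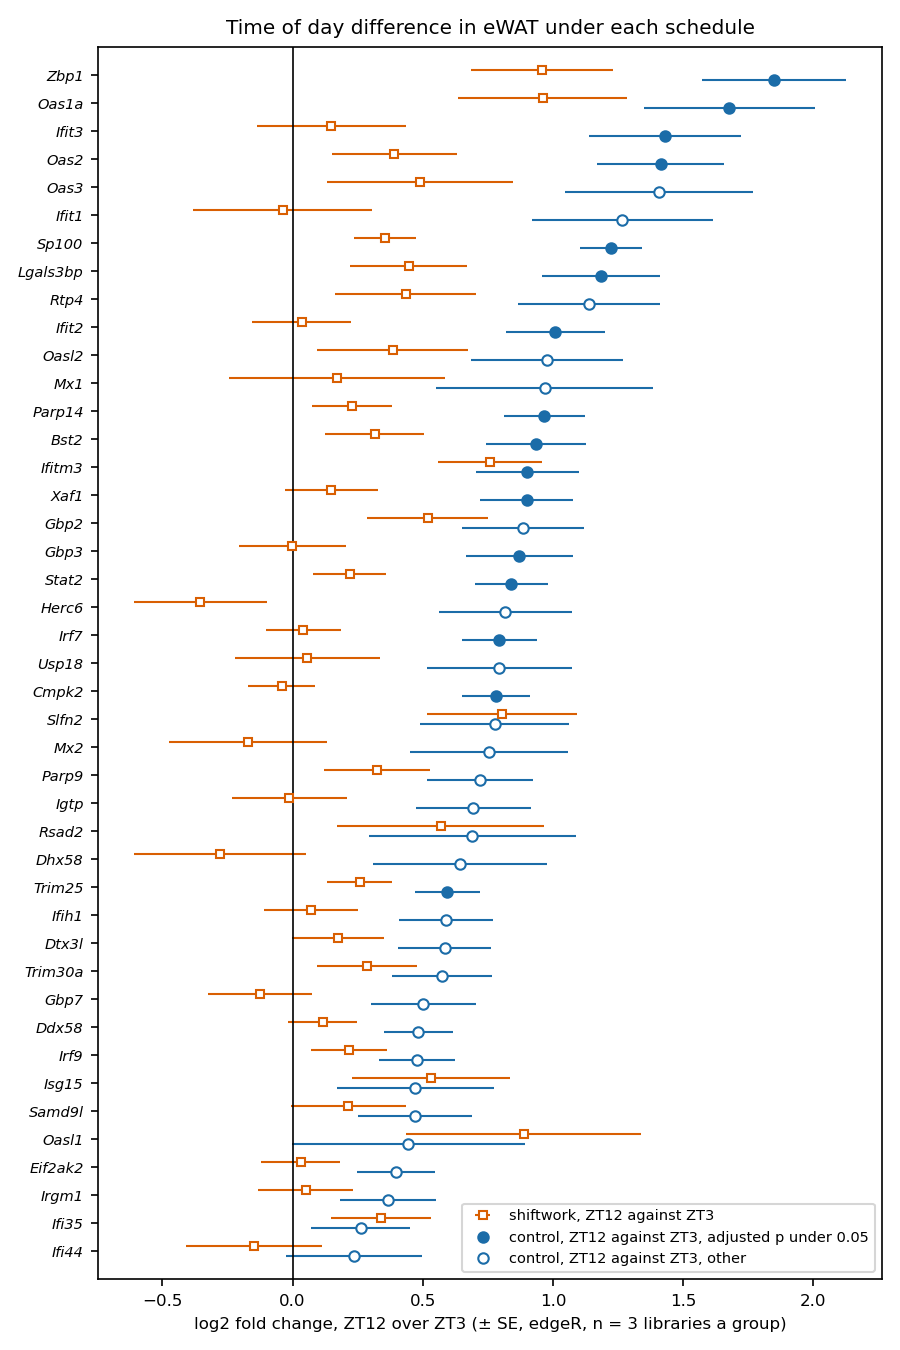
Log2 fold change of ZT12 over ZT3 in eWAT (± SE, edgeR, n = 3 libraries a group) for each member under shiftwork (orange squares) and control (blue circles, filled where the adjusted p is under 0.05), ordered by the control value. All blue circles lie right of 0, and the orange squares lie between -0.35 and 0.96 with 9 left of 0.

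The test of the difference between these time differences, shiftwork minus control, called no member (0% of all genes called by edgeR, 16 members at an unadjusted p under 0.05 against 10.1% of all genes). It was below 0 in 39 of 43 members, against 57.1% of all genes, with a median of -0.63 where all genes had -0.07. The smallest p belonged to Sp100 at -0.87 ± 0.17 and Cmpk2 at -0.82 ± 0.18 (edgeR, adjusted p = 0.372 for both), and DESeq2 called these 2 and 1.32% of all genes. Irf7 at -0.75 ± 0.20, Ifit2 at -0.97 ± 0.27 and Parp14 at -0.74 ± 0.22 followed. Without ZT3 shiftwork replicate 3, the library with spermatid transcripts, edgeR called 1 member, Gbp3, and 0.0975% of all genes. The 4 members above 0 were Oasl1, Ifi35, Isg15 and Slfn2. The time difference was thus smaller under shiftwork in most members, and edgeR's test of that contrast passed for none.

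The same 12 libraries can be read as shiftwork against control at each time, with values that share those libraries and are given side by side. At ZT3, 35 of 43 members were higher in shiftwork libraries (56.9% of all genes), with a median of 0.24. At ZT12, 40 of 43 were lower in shiftwork libraries (50.9% of all genes), with a median of -0.34. No member and no gene was called by edgeR at either time (0% of all genes), with 8 members at ZT3 and 10 at ZT12 at an unadjusted p under 0.05, against 18.8% and 2.34% of all genes. The count at ZT3 was 15 without ZT3 shiftwork replicate 3, 5 without ZT3 shiftwork replicate 1 or ZT3 control replicate 2, and 3 without ZT3 control replicate 3. The count at ZT12 was 20 without ZT12 control replicate 3, 16 without ZT3 shiftwork replicate 3, and 5 without ZT12 shiftwork replicate 2 or 3 or ZT12 control replicate 1 or 2. DESeq2 called Cmpk2 and Sp100 at ZT3, and 4.62% of all genes, and no member at ZT12, and 0.0493% of all genes (11 members at an unadjusted p under 0.05). Every shiftwork library lay above every control library in 8 members at ZT3, which held for 7.64% of all genes, and below in 13 members at ZT12, which held for 6.55%. Without ZT12 control replicate 2 the ZT12 median was -0.24, and 39 of 43 were below 0.

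Sp100 had the smallest p at ZT3, with 73.6, 67.4 and 58.4 CPM in shiftwork libraries, against 52.4, 47.4 and 44.9 CPM in control libraries, a difference of 0.46 ± 0.12 (edgeR, adjusted p = 0.195). At ZT12 it had 95.2, 79.0 and 80.8 CPM in shiftwork libraries, against 120.3, 112.2 and 105.0 CPM in control libraries, a difference of -0.40 ± 0.12 (edgeR, adjusted p = 1). Sp100 was thus above the control range at ZT3 and below it at ZT12. Cmpk2 showed the same order, with 13.8, 16.4 and 13.8 CPM in shiftwork against 10.9, 10.9 and 9.81 CPM in control libraries at ZT3 (0.48 ± 0.13, edgeR, adjusted p = 0.198), and 13.6, 15.3 and 13.8 CPM in shiftwork against 18.2, 19.9 and 16.1 CPM in control libraries at ZT12 (-0.34 ± 0.13). The others with the smallest p were Irf7 (0.50 ± 0.14), Herc6 (0.67 ± 0.25) and Gbp3 (0.52 ± 0.21) at ZT3 and Stat2 (-0.49 ± 0.14), Parp14 (-0.52 ± 0.15), Oas2 (-0.76 ± 0.24) and Ifit1 (-0.93 ± 0.35) at ZT12, where edgeR gave an adjusted p of 1 for each. Herc6 at ZT3 had 17.6, 16.2 and 32.2 CPM in shiftwork libraries, against a highest value of 14.6 CPM in control libraries, the highest of all being replicate 3 with its spermatid transcripts.

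In iWAT, a single library set the pattern. Shiftwork replicate 3 had the highest value of 6 libraries in 40 of 43 members, against 19.1% of all genes, and in 20 members it was over 2 times the next highest library, against 2.20% of all genes. The exceptions were Sp100, Gbp7 and Samd9l. Named after their values were seen, Isg15 had 296, 236 and 2543 normalised counts in shiftwork libraries, against 309, 234 and 177 in control libraries, so that replicate 3 stood 8.23 times above the next highest library. Oasl2, Oas3, Oas1a and Oasl1 stood 7.57, 7.53, 7.18 and 6.85 times above it and Irf7 5.23 times. The median of this ratio over the 43 members was 1.92, and over all genes tested 0.73.

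**Figure D5:**
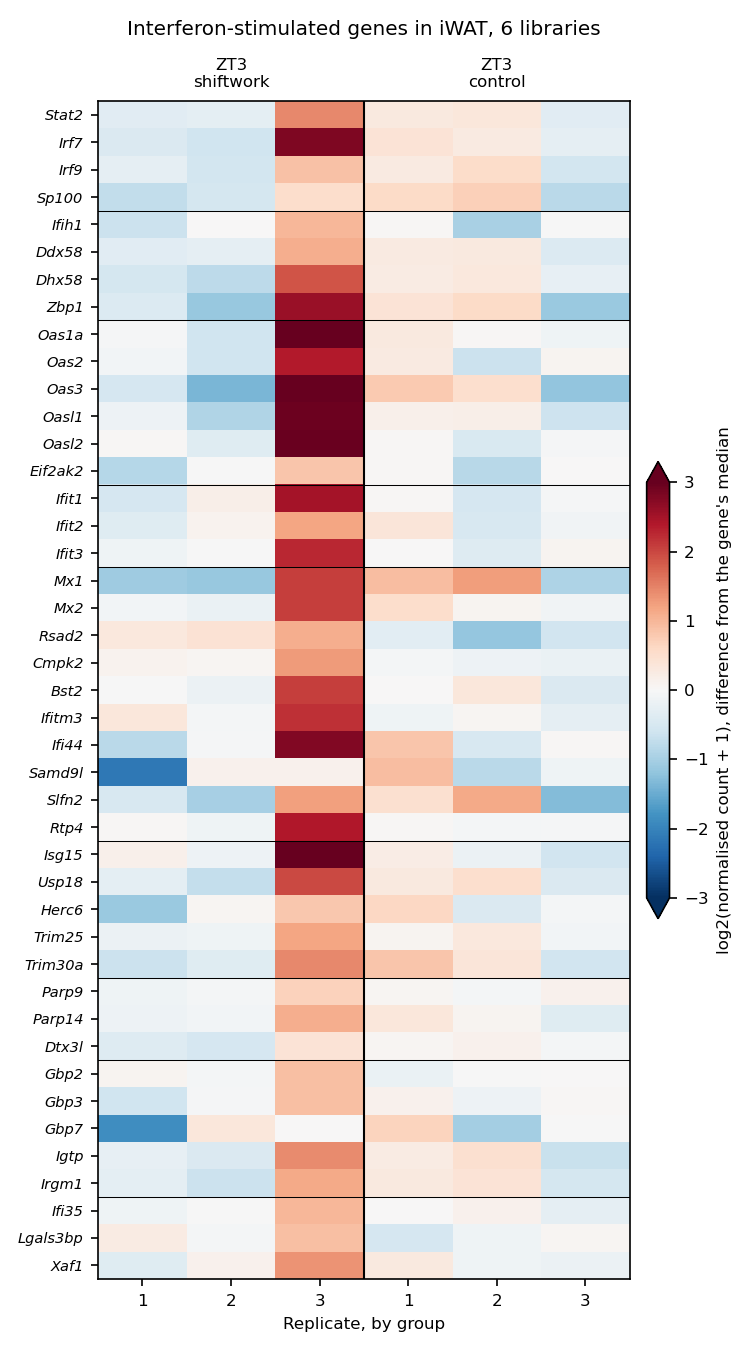
Colour shows log2 of the authors' normalised count + 1 of each of the 43 members (rows) in each of the 6 iWAT libraries (columns) as the difference from that gene's median, with colours saturating at 3. The shiftwork replicate 3 column is red in nearly every row, while shiftwork replicates 1 and 2 are mostly pale blue. The control replicate 1 column is mostly pale red, and the control replicate 2 column mixes red and blue.

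The same library also stood apart in other transcripts. Macrophage markers summed to 2631, 1457 and 4354 CPM in shiftwork libraries, against 2124, 2586 and 2013 CPM in control libraries, and fibroblast and progenitor markers to 5858, 4469 and 18054 CPM, against 4091, 3294 and 7634 CPM. Neutrophil markers summed to 126 CPM in shiftwork replicate 3 and to 9.57 to 56.3 CPM in the other 5. Their part in the interferon-stimulated genes was not tested. Of 58 other interferon-stimulated genes tested in iWAT, 33 were highest in this library, against 19.1% of all genes. Of the 58, 13 were over 2 times the next highest library, against 2.2% of all genes. Of 16 interferon-gamma-induced GTPase genes, 8 were highest in this library and 5 were over 2 times the next highest, against the same shares. Ifng had 4.71 normalised counts there, within the range of 1.15 to 7.48 in the other libraries.

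Shiftwork against control in iWAT at ZT3 called no member and no gene (0% of all genes by limma, 1 member at an unadjusted p under 0.05 against 6.68% of all genes, and 0 members and 0% of all genes called by edgeR on recovered reads, with 1 member at an unadjusted p under 0.05). The log2 fold change was above 0 in 33 of 43 members, against 51.8% of all genes, with a median of 0.38. Without shiftwork replicate 3, only 8 of 43 were above 0, 4 had an unadjusted p under 0.05 and the median was -0.32, so 35 were below 0, against 50.3% of all genes. Control replicates 1 and 2 are the libraries rich in B cell, T and NK cell and lymph node stroma markers. With these also left out, 21 were above 0 and 22 below, with a median of -0.03. That fit was not planned in advance and leaves 1 control library. With any single library other than shiftwork replicate 3 left out, 26 to 41 of 43 were above 0. Leaving out control replicates 1 and 2 but keeping shiftwork replicate 3, also unplanned and with 1 control library, gave 38 above 0 and a median of 0.61. The direction for the group as a whole therefore followed whether shiftwork replicate 3 was included.

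Rsad2 was the member with the smallest p. It had 1264, 1371 and 2133 normalised counts in shiftwork libraries, against 804, 452 and 675 in control libraries, with no overlap between the groups, and a difference of 1.30 ± 0.30 on the log2(value + 1) scale (limma, adjusted p = 0.688). In the authors' deposited table, whose direction was read from their RPKM as shiftwork over control, Rsad2 had a log2 fold change of 1.24 and an adjusted p of 0.0269, the only one of the 43 under 0.05. That table gives no p for 7 members, Irf7, Zbp1, Oasl2, Oas3, Isg15, Oasl1 and Oas1a, while 1.27% of the genes tested here lack one. Next by p came Lgals3bp at 0.56 ± 0.30, Cmpk2 at 0.62 ± 0.34, Ifitm3 at 0.94 ± 0.57 and Isg15 at 1.26 ± 0.90, with shiftwork replicate 3 the highest library for each. Cmpk2, the genomic neighbour of Rsad2, was the other member whose groups did not overlap, with 739, 710 and 1661 normalised counts in shiftwork libraries, against 656, 615 and 590 in control libraries. Such separation was found in 2 of 43 members and in 7.34% of all genes.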

How the data were processed

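RNA from mouse eWAT (12 libraries) and iWAT (6) was sequenced as single reads. STAR, HTSeq, edgeR, limma and DESeq2, with mm10 and GRCm38 as builds, are listed without roles or versions, per the submitters' processing notes. For eWAT the authors deposited raw read counts per gene and log2 FPKM values with a floor. For iWAT the authors deposited RPKM values, p-values with log2 fold changes, and normalised counts, a signal in which each library's counts are divided by a size factor. Of 144100 values above 0 in that table, 100% were whole multiples of 1 step per library (tolerance 1e-06 reads).

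The eWAT counts were filtered (filterByExpr, minimum count 10, minimum total 15), TMM-scaled and fitted with edgeR 4.0.16 in 1 model over the 4 groups, with limma 3.58.1 on log2(value + 1) for iWAT (at least 10 in 3 libraries), in R 4.3.3. For iWAT, edgeR on the recovered reads was an alternative. Marker sums are CPM without TMM scaling. Adjusted p-values are Benjamini-Hochberg over all genes tested. Alternatives were DESeq2 1.42.0 (shares are of genes with an adjusted p), RLE scaling, limma on log2 FPKM, no low-count filter, a replicate block and leaving out libraries. No library pair within a group agreed within sampling noise. The fits were tested on simulated data.

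The 43 members and the gene lists were chosen with earlier results of these data known. The text names every called member, the 5 with the smallest p where none was called, and for iWAT those named there as chosen after their values were seen. Results on some genes of the other lists are not reported here.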

Additional observations from a re-analysis of the deposited data

How the results depend on the processing

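For ZT12 against ZT3 in control eWAT, edgeR called 16 of the 43 members (3.69% of all genes) and DESeq2 called 28 (15.3%). Leaving out 1 library gave 0 to 28 called members, where 0.00638% to 17.8% of all genes were called. The fit without the 4 libraries that hold other tissues, which leaves 1 ZT3 control library, gave a median of 0.81. All 43 stayed above 0 under each alternative run. DESeq2 also called 1 member for ZT12 against ZT3 under shiftwork (2.16% of all genes) and 2 for shiftwork against control at ZT3 (4.62%). It called 2 for the difference between the time differences (1.32%), and edgeR called 0 members and 0% of all genes in each. For that difference, leaving out 1 library gave 0 to 1 called, with 0.0975% of all genes called in the fit with 1. The median then ran from -0.75 to -0.48, with -0.48 without ZT12 control replicate 2. The labels' replicate numbers were not used to pair the samples. Same-numbered deviations correlated at -0.249 to 0.242 in eWAT, over 0.1 in 4 of 18 pairs, and at -0.22 to -0.0368 in iWAT. Differently numbered eWAT pairs spanned a like range, -0.305 to 0.282, so this check cannot tell whether same-numbered libraries are paired. With the replicate block 12 members were called in the control time comparison, against 1.97% of all genes. In iWAT the members' median was 0.38, and -0.32 without shiftwork replicate 3. The causes were not tested. With 3 libraries a group, an exact permutation test of a single gene cannot go below p = 0.1.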

Other observations

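The iWAT control libraries and iWAT shiftwork replicate 3 carry the same description numbers as the ZT12 eWAT control libraries and ZT12 eWAT shiftwork replicate 1, and what these numbers mean is not given in the sources used here. ZT12 eWAT shiftwork replicate 1 was the highest of its group in 27 of 43 members, against 39.3% of all genes. ZT12 eWAT control replicates 1 to 3 were so in 7, 35 and 1 members, against 27.7%, 35.6% and 36.7% of all genes. For iWAT control replicates 1 to 3 it was 22, 17 and 4 members, against 18.6%, 40.4% and 40.9%. Whether libraries with the same number share an animal was not tested.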
